A study of Mus musculus with 15 samples.

Results

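The Zic genes encode zinc-finger transcription factors, and *Zic1*, *Zic2*, *Zic4* and *Zic5* were followed here through cerebral cortex and cultured cortical neurons of foetuses with and without the X-linked gene *Phf6*. The members were chosen by name, with earlier results of these data known. These 4 genes were taken from 23129 genes with an official symbol in the deposited count table. PHF6 is a chromatin protein of the nucleus. RNA sequencing covered 15 libraries of individual male C57BL/6 foetuses. E15.5 cortex was taken from 3 Phf6 +/Y and 5 Phf6 -/Y foetuses of litters 1 to 3. Neurons were cultured from E16.5 cortex of 3 Phf6 +/Y NesCre T/+ controls and 4 Phf6 lox/Y NesCre T/+ foetuses of litters 4 to 7, so all the neuron libraries carried the Nes-cre transgene and none of the cortices did. Nes-cre drives Cre recombinase in neural progenitors, and cells of other origins in a culture can keep an intact *Phf6*. In litter 7 no control was sequenced.

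Zic proteins bind DNA through a run of C2H2 zinc fingers that resembles the fingers of the GLI proteins, the transcription factors of hedgehog signalling. In the developing mouse they are best known from the dorsal neural tube, the midline and septum of the forebrain, the meninges and the cerebellum. Loss of *Zic2* disturbs the forebrain midline, and loss of *Zic1* together with *Zic4* disturbs the cerebellum.

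The 4 genes lie in 2 pairs, each made of a gene on the minus strand and a gene on the plus strand that point away from each other. In the RefSeq annotation of GRCm38, the build to which the reads were aligned, *Zic1* (Entrez gene 22771) spans chr9:91358058-91365768 on the minus strand and *Zic4* (22774) spans chr9:91365631-91389351 on the plus strand. Their 5′ ends overlap by 138 bases. *Zic5* (65100) spans chr14:122459160-122465658 on the minus strand and *Zic2* (22772) spans chr14:122475384-122480328 on the plus strand. The long noncoding RNA gene 2610035F20Rik lies between them on the minus strand, and in the GENCODE annotation its start is 236 bases from that of *Zic2*. The strand setting of the counting is not given in the sources used here, so reads from overlapping ends of opposite genes cannot be told apart.

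Because the genes share their zinc fingers, their coding sequences were compared for stretches in which a read could come from either gene. The longest identical stretch of the neighbours *Zic2* and *Zic5* follows, read in the coding direction, and it is shorter than the 80-base reads.
*Zic2* and *Zic5*, 26 bases: cgctccgagaacctcaagatccacaa
No 80-base window of a *Zic1* or *Zic2* transcript occurred in a transcript of any other gene in GENCODE M21. Of the windows of *Zic4*, 3.74% occurred in the opposite strand of Gm37477, and of those of *Zic5*, 3.53% occurred in Gm12241. No 80-base window was shared between members.

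RefSeq promoter windows, from 250 bases before to 50 bases after the annotated start, were found for *Zic1*, *Zic4* and *Zic5* in GRCm38.p6. They are printed to show an annotated start of each of these genes, which for *Zic4* lies inside the counted gene. None was at hand for *Zic2*. Capitals mark matches, searched on both strands, to the CCAAT box (letters CCAAT), the TATA box (letters TATAAA), the E-box (letters CACGTG), the GLI consensus (letters GACCACCCA), which Zic proteins can also bind, and a Zic-type element (letters CCTGCTG). The matches found did not overlap each other.
*Zic1*, chr9:91365719-91366018, minus strand: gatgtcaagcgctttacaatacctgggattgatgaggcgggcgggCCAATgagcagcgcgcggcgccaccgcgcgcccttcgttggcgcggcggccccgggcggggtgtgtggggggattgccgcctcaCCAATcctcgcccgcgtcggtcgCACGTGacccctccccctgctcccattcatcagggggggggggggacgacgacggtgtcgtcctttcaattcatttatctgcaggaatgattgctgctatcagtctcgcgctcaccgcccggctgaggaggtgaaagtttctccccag
*Zic4*, chr9:91368722-91369021, plus strand: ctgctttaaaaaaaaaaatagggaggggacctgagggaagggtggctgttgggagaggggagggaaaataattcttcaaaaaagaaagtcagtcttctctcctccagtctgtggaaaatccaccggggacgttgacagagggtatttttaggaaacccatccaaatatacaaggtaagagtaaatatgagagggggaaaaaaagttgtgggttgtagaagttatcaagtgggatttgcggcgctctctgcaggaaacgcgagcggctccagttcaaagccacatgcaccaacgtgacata
*Zic5*, chr14:122465609-122465908, minus strand: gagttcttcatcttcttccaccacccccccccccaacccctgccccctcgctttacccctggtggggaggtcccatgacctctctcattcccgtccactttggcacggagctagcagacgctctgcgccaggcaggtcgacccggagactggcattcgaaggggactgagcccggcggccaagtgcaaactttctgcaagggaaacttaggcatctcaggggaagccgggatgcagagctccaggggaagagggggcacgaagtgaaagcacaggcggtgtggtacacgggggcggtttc
The *Zic1* window held CCAAT at 205 and 121 bases and CACGTG at 98 bases upstream of the start, and the *Zic4* and *Zic5* windows held none of the 5 motifs. Of 32851 promoter windows of the same length, 37.4% held CCAAT, 13.6% TATAAA, 7.15% CACGTG, 0.253% GACCACCCA and 10.5% CCTGCTG. GC content was 65.3% with 31 CpG dinucleotides in the *Zic1* window, 46% with 8 in that of *Zic4* and 62.7% with 15 in that of *Zic5*, against medians of 52.7% and 7 over all windows. The *Zic4* window lies inside the counted gene, downstream of its first annotated base.

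Before the levels of the Zic genes were compared, the libraries were examined. Total counts ranged from 16858007 to 31157700. *Phf6*, counted over its whole length, fell from 172 ± 21.2 CPM in the 3 control cortices to 48.0 ± 5.83 CPM in the 5 Phf6 -/Y cortices, and from 247 ± 16.8 CPM in the 3 control cultures to 70.6 ± 11.2 CPM in the 4 mutant cultures (means with SD). CPM are the counts of a gene scaled to a common library total, here by the TMM method over all libraries. The deletion removes exons 4 and 5 of *Phf6*, and its counts here also take in the other exons. The paper reports that the deleted exons had no reads and that foetal brain lacked PHF6 protein. Phf6 -/Y replicate 1 of the cortex, from litter 3, stood apart. Its summed level of 12 genes of the diencephalon, the brain region behind the cortex, was 511 CPM, against 49.0 to 77.0 CPM in the other cortices, led by *Tcf7l2* at 268 CPM against at most 18.1 CPM elsewhere. Its summed level of 12 genes of the pallium, the embryonic cortex, was 2225 CPM, against 3235 to 3686 CPM elsewhere. None of the 12 pallium genes was at 0 in any library.

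In the cortex all 4 genes were expressed in every library, with *Zic1* the highest. *Zic1* was at 154, 82.6 and 86.5 CPM in Phf6 +/Y replicates 1 to 3 and at 223, 122, 157, 142 and 115 CPM in Phf6 -/Y replicates 1 to 5. *Zic4* was at 56.4, 35.9 and 31.2 CPM in the controls and at 84.9, 63.3, 63.9, 53.6 and 51.5 CPM in Phf6 -/Y cortex. The groups overlapped for both genes. The control of litter 3 lay above both Phf6 -/Y cortices of litter 1, and for *Zic1* also above 1 of litter 2.

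*Zic2*, the member needed at the forebrain midline, was at 52.8, 31.5 and 40.9 CPM in Phf6 +/Y and at 84.9, 49.0, 51.8, 54.1 and 41.1 CPM in Phf6 -/Y cortex. *Zic5*, its neighbour, was the lowest, at 9.17, 3.68 and 7.78 CPM in the controls and 17.6, 8.14, 9.0, 8.85 and 8.11 CPM in Phf6 -/Y cortex. For each gene the highest value was that of Phf6 -/Y replicate 1, the library with the diencephalic genes.

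**Figure D1:**
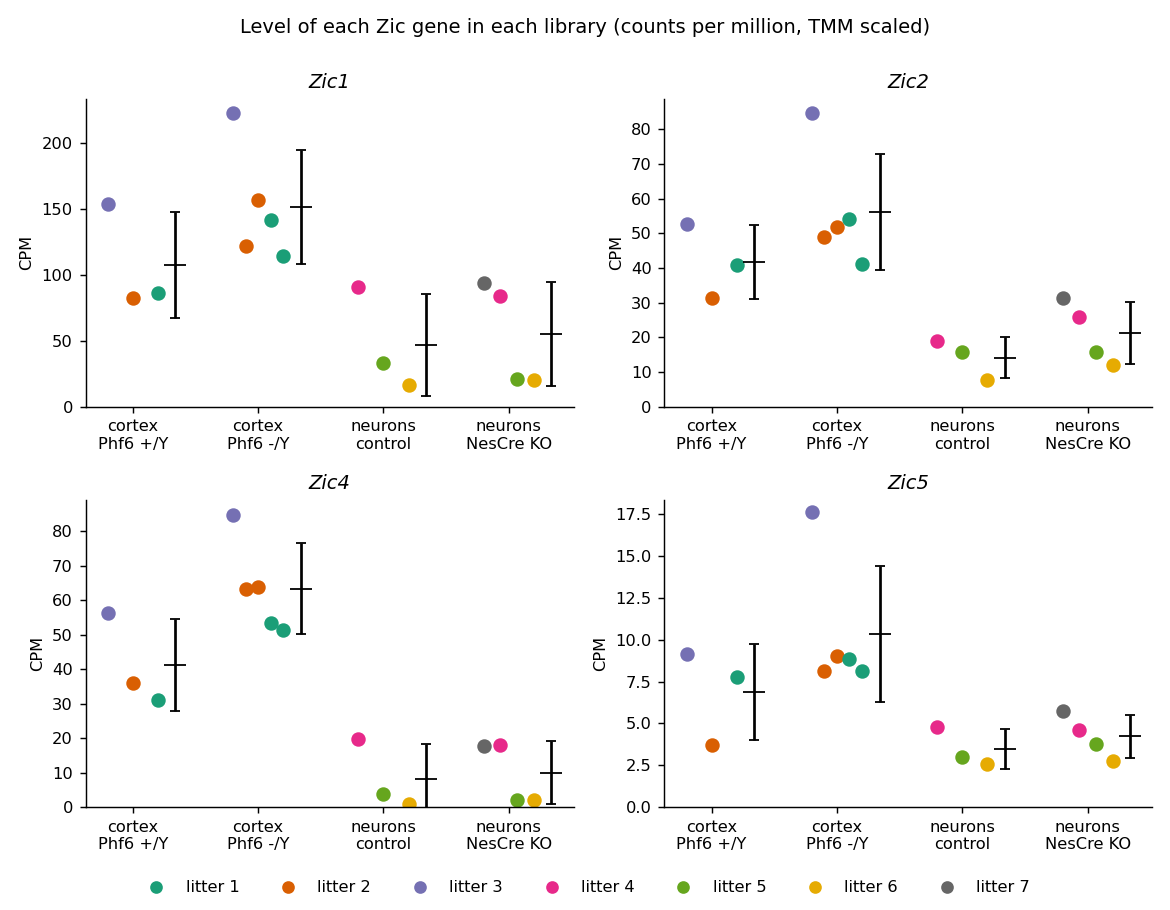
CPM of each Zic gene (vertical axes, linear from 0) in each of the 15 libraries, coloured by litter; "NesCre KO" stands for Phf6 lox/Y NesCre T/+, and black bars give the mean and SD of each group, cut at 0. Litter 3 is the highest in each cortex group, and in neurons litters 4 and 7 lie above litters 5 and 6 for every gene.

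Per kilobase of counted gene, the order of levels was *Zic1*, *Zic2*, *Zic4* and *Zic5* in each of the 8 cortex libraries. In the controls the mean was 32.1 ± 12 CPM per kb (SD, n = 3) for *Zic1*, 14.1 ± 3.6 for *Zic2*, 10.1 ± 3.28 for *Zic4* and 2.89 ± 1.2 for *Zic5*. The ranges of *Zic2* and *Zic4* over the controls overlapped, although *Zic2* was the higher in each library. In neurons *Zic1* was above *Zic2*, and *Zic2* above the other two, in all 7 libraries, while *Zic4* was above *Zic5* in 3 of 7.

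Phf6 -/Y was compared with Phf6 +/Y cortex within litters, to ask which genes depend on *Phf6* in the developing cortex. *Zic4* and *Zic1* were called higher in Phf6 -/Y cortex, and *Zic2* and *Zic5* had estimates of like size that did not pass the test. For *Zic4* the log2 fold change was 0.73 (SE 0.08, approximate 95% interval 0.58 to 0.87, FDR = 7.2e-04, edgeR's quasi-likelihood F test, litter included in the model). For *Zic1* it was 0.62 (SE 0.10, 0.43 to 0.82, FDR = 0.0271, same edgeR test). For *Zic2* it was 0.51 (SE 0.11, 0.29 to 0.73, FDR = 0.0934), and for *Zic5* 0.71 (SE 0.19, 0.34 to 1.09, FDR = 0.161), both by the same edgeR test. The 2 members called compare with 0.386% of 14749 genes tested, of which 0.319% were called higher. The median log2 fold change was 0.67 over the 4 members and -0.0021 over all genes tested. Because the members were chosen with earlier results of these data known, both comparisons with all genes are descriptive. In bulk tissue a change in the share of a cell type and a change in RNA per cell cannot be told apart.

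Within litters, each of the 5 Phf6 -/Y cortices was above the control of its litter for all 4 genes, which 7.95% of tested genes also were. In litter 1 the margins of *Zic2* and *Zic5* were small, at log2 differences of 0.21 and 0.12 between the mean of the 2 Phf6 -/Y cortices and the control. In litter 2 they were 0.68 and 1.2, and in litter 3, 0.68 and 0.94. *Zic4* differed by 0.75, 0.82 and 0.59 in litters 1, 2 and 3, and *Zic1* by 0.56, 0.75 and 0.53.

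The calls of *Zic4* and *Zic1* depended on the litter term and on litter 2, and that of *Zic1* also on single libraries. Without the litter term *Zic4* was at 0.61 (FDR = 0.654) and *Zic1* at 0.49 (FDR = 0.801) in edgeR, and 1 gene was called over all genes tested. Leaving out litter 2 gave 0.68 (FDR = 0.111) for *Zic4* and 0.56 (FDR = 0.275) for *Zic1*. With single libraries left out, *Zic4* stayed called in 8 of 8 edgeR fits (highest FDR = 0.0247). DESeq2 called all 4 members, with adjusted p of 0.0021 for *Zic2* and 0.0379 for *Zic5*. In edgeR *Zic2* was called without Phf6 -/Y replicate 5 (0.59, FDR = 0.00448), and *Zic2* (0.67, FDR = 0.0143) and *Zic5* (1.07, FDR = 0.03) without litter 1, where *Zic1* was not (0.65, FDR = 0.0564). *Zic1* lost its edgeR call without Phf6 +/Y replicate 1 (FDR = 0.122), replicate 2 (FDR = 0.229) or replicate 3 (FDR = 0.145), or without Phf6 -/Y replicate 1 (0.66, FDR = 0.0915). Leaving out litter 3, with the library of diencephalic genes, gave 0.78 (FDR = 0.00569) for *Zic4*, 0.66 (FDR = 0.136) for *Zic1*, 0.44 for *Zic2* and 0.62 for *Zic5* in edgeR.

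**Figure D2:**
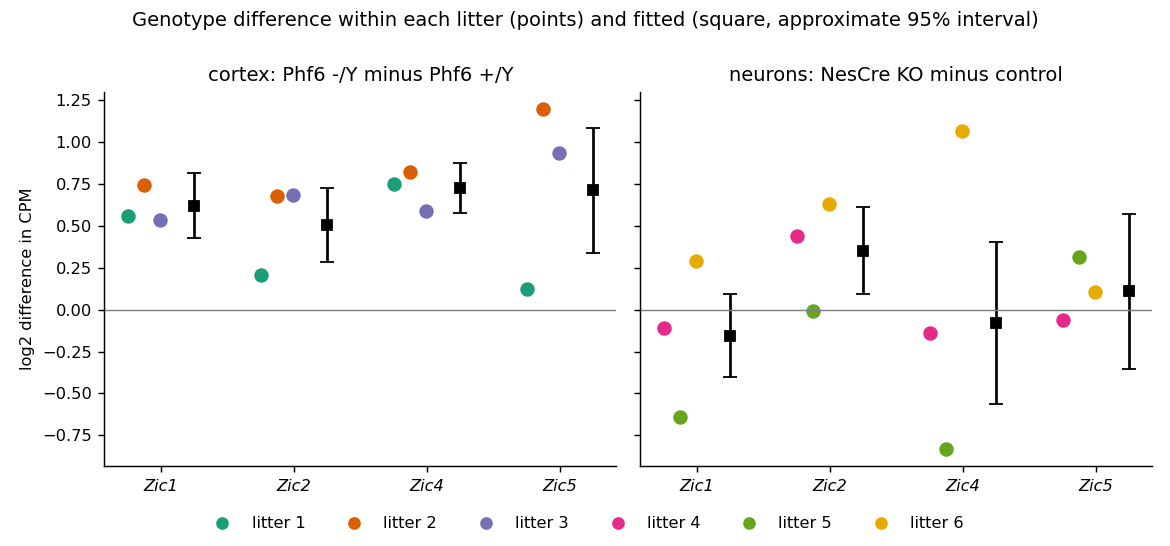
Log2 difference in CPM between genotypes (vertical axis) for each Zic gene in cortex (left) and neurons (right). Coloured points are litters with a control, and black squares with bars are the fitted log2 fold change and its approximate 95% interval; all the cortex points lie above 0, while in neurons they fall on both sides.

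Genes of cell types and regions known to use Zic factors were read beside these values. Of 9 genes of Cajal-Retzius cells, the early neurons of the cortical surface that arise in part at the forebrain midline, 2 were called higher in Phf6 -/Y cortex and 0 lower, with a median log2 fold change of 0.30 against -0.0021 over all genes. They were *Lhx5*, a transcription factor (0.77, FDR = 0.0368 in edgeR), and *Calb2*, which encodes calretinin (0.56, FDR = 0.0393 in edgeR). The summed level of the 9 genes was 328 to 366 CPM in controls and 424 to 479 CPM in Phf6 -/Y cortex. How often sums of other genes differ as much was not computed. Its most abundant gene, *Reln*, was at 228 to 258 CPM in controls and 185 to 355 CPM in Phf6 -/Y cortex, lowest in replicate 1. The part of these cells in the Zic values was not tested.

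Of 6 tested genes of the septum and rostral midline, 0 were called in either direction by edgeR (1 at an unadjusted p below 0.05, 1 called by DESeq2 and 0 by limma-trend), with a median of 0.09. The member with the smallest p was *Nkx2-1*, a regulator of the ventral forebrain (0.38, FDR = 0.137 in edgeR). Their summed level was 94.4 to 148 CPM in controls and 96.4 to 177 CPM in Phf6 -/Y cortex, highest in the 2 libraries of litter 3. The 9 tested diencephalic genes had a median of 1.29, and 1 was called higher, *Dbx1*, a homeobox gene of neural progenitors, at 0.907, 0 and 0.121 CPM in controls and 12.7, 0.86, 0.402, 0.749 and 0.502 CPM in Phf6 -/Y cortex (FDR = 0.0136 in edgeR). Without litter 3 *Dbx1* was not called (FDR = 0.366 in edgeR).

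Genes of the meninges, which express Zic genes, varied widely between the cortices. The summed level of 13 meningeal fibroblast genes was 369 CPM in Phf6 +/Y replicate 3 and 663 CPM in Phf6 -/Y replicate 4, both of litter 1, and 43.2 to 163 CPM in the other cortices. That of 10 choroid plexus genes was 485, 354 and 344 CPM in Phf6 +/Y replicates 2 and 3 and Phf6 -/Y replicate 4, and 3.44 to 75.4 CPM elsewhere. Within litter 1 the 4 Zic genes were higher in Phf6 -/Y replicate 4 than in replicate 5, whose meningeal sum was 43.2 CPM, and *Zic2* in replicate 4 was the second highest of the 8 cortices. The margin of *Zic4* was small, 53.6 against 51.5 CPM. Phf6 +/Y replicate 3, the control with the meningeal sum of 369 CPM, was below Phf6 -/Y replicate 5 for all 4 genes. Its *Zic4*, at 31.2 CPM, was the lowest of the 8 cortices. The part of these tissues in the Zic values was not tested. Of the 13 and 9 tested genes of these lists, 0 were called in the cortex, with median log2 fold changes of 0.58 for the meningeal and -1.208 for the choroid plexus genes.

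In the hem, the signalling centre at the medial edge of the cortex, 0 of 13 tested genes were called (median -0.09, smallest p for *Rspo1* at -0.29, FDR = 0.678 in edgeR). The ganglionic eminence and olfactory bulb interneuron list had 0 of 10 called (median 0.17, *Isl1* 0.35, FDR = 0.225). The pallium had 0 of 12 (median -0.22, *Emx1* -0.42, FDR = 0.281). Lists of 5 neuronal, 6 endothelial and mural and 6 microglial genes also had 0 called, with medians between -0.05 and 0.18. At an unadjusted p below 0.05 in edgeR there were 0 hem, 3 interneuron, 4 pallium, 0 neuronal, 0 endothelial, 0 microglial, 0 meningeal and 0 choroid plexus genes, and DESeq2 and limma-trend called 0 in each of these lists.

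Of the genes nearest to the Zic proteins by function, the GLI superfamily and the hedgehog receptors, 0 of 10 were called in the cortex by edgeR, DESeq2 or limma-trend, and 2 were at an unadjusted p below 0.05 in edgeR (median -0.06). The hedgehog receptor *Ptch1*, itself a target of GLI proteins, was at 0.36 (FDR = 0.293 in edgeR). In neurons 0 of 9 were called by any of the 3 tools and 2 were at an unadjusted p below 0.05 in edgeR (median -0.16), with *Gli3*, the main GLI repressor, at -0.40 (FDR = 0.157).

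**Figure D3:**
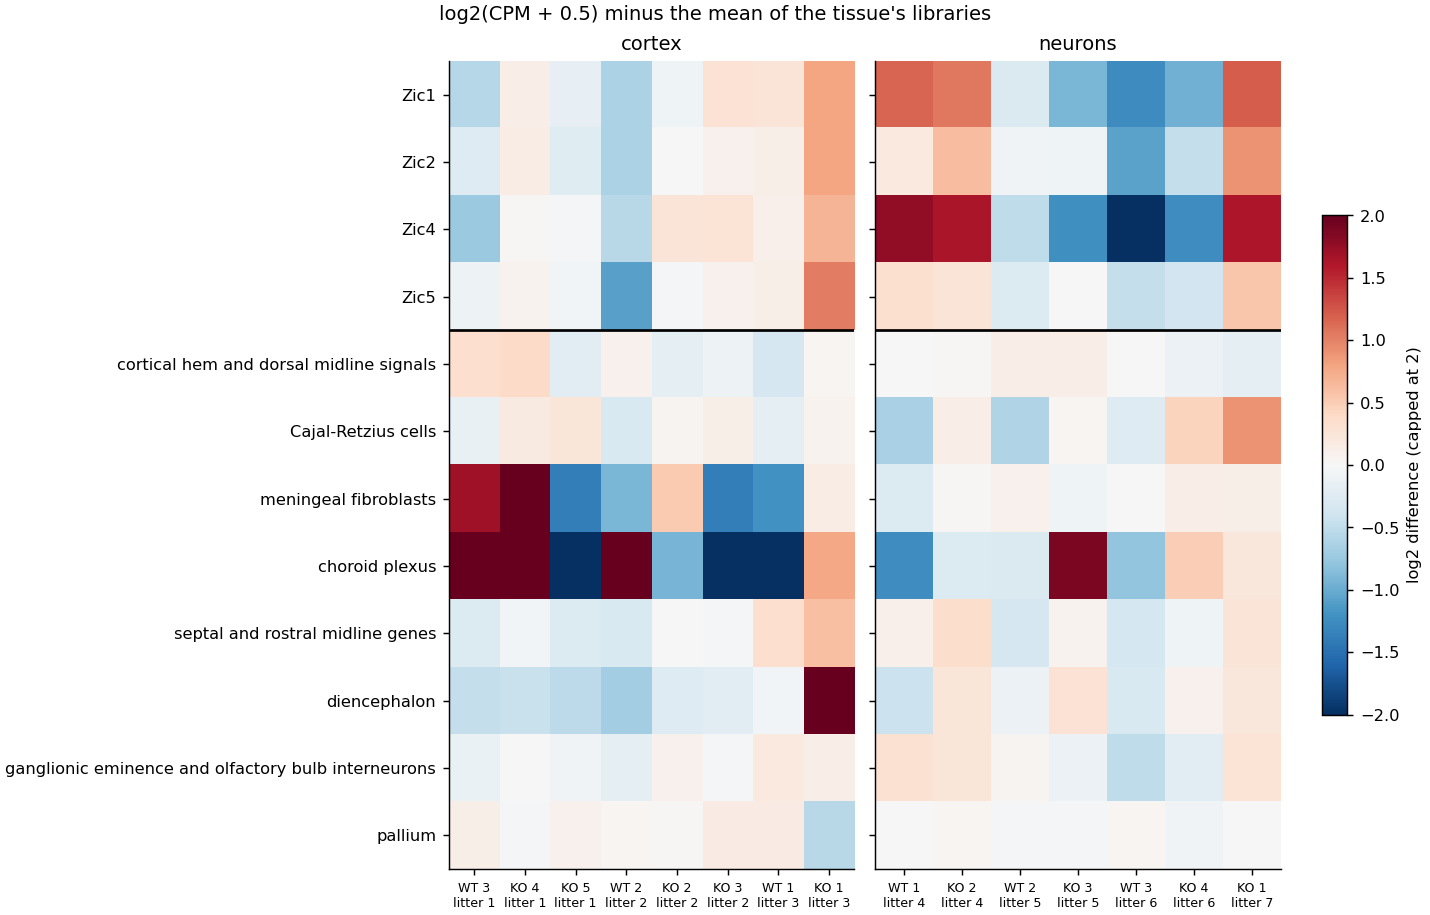
Colours give log2(CPM + 0.5) in each library minus the mean of its tissue, capped at 2, for the 4 Zic genes (above the line) and the summed CPM of 8 marker lists (below), with libraries ordered by litter and WT and KO standing for controls and *Phf6* mutants. The diencephalic list is high in 1 cortex library, KO 1 of litter 3, where the Zic genes are also highest; in neurons the Zic genes are high in litters 4 and 7.

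In cultured neurons, the genotype comparison gave no call among the members. *Zic1* was at 90.6, 33.1 and 16.7 CPM in control replicates 1 to 3 and at 94.0, 84.1, 21.2 and 20.4 CPM in Phf6 lox/Y NesCre T/+ replicates 1 to 4. *Zic4* was at 19.7, 3.69 and 0.921 CPM in controls and 17.7, 17.9, 2.04 and 2.02 CPM in Phf6 lox/Y NesCre T/+ neurons. *Zic2* was at 19, 15.7 and 7.63 CPM and at 31.3, 25.9, 15.7 and 11.9 CPM. In each of these genes the values split by litter and overlapped between genotypes.

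*Zic5* was at 4.80, 3.00 and 2.54 CPM in control and 5.76, 4.60, 3.76 and 2.74 CPM in Phf6 lox/Y NesCre T/+ neurons. The fitted log2 fold changes were -0.16 for *Zic1* (approximate 95% interval -0.40 to 0.09, FDR = 0.74), 0.35 for *Zic2* (0.09 to 0.61, FDR = 0.359), -0.08 for *Zic4* (-0.57 to 0.40, FDR = 0.95) and 0.11 for *Zic5* (-0.35 to 0.57, FDR = 0.924), by edgeR's quasi-likelihood F test, litter included. At the FDR 0 of 4 members were called, against 0.273% of 13908 genes tested, and at an unadjusted p below 0.05 only *Zic2* passed, against 10.3% of genes. DESeq2 and limma-trend also called 0 of 4. By litter, *Zic2* was higher in the mutant in litters 4 and 6, by 0.44 and 0.63 on the log2 scale, and equal in litter 5, at -0.007. *Zic4* differed by -0.14, -0.83 and 1.07 in litters 4, 5 and 6, the last from 0.921 to 2.02 CPM. Without control replicate 3 of the neurons, *Zic1* was at -0.33 and called lower (FDR = 0.032 in edgeR), and without control replicate 2 or mutant replicate 3 it was at 0.06 and *Zic4* at 0.18. Without the litter term the estimates were 0.23, 0.59, 0.29 and 0.29 for *Zic1*, *Zic2*, *Zic4* and *Zic5*, with FDR from 0.866 to 0.982 in edgeR.

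Of 8 tested Cajal-Retzius genes, 2 were called higher in the mutant cultures, *Reln*, a secreted glycoprotein (0.81, FDR = 1.36e-05 in edgeR) and *Ndnf* (1.24, FDR = 0.0038). The summed level of the list was 139 to 183 CPM in controls and 223 to 405 CPM in mutants. The 405 CPM was that of litter 7, which had no control. *Zic1* and *Zic4* overlapped between the same libraries. The diencephalic list had *Lhx9* called higher (0.82, FDR = 0.0172 in edgeR) among 4 tested genes, with sums of 15.3 to 19.2 CPM in controls and 22.2 to 25.4 CPM in mutants. *Lhx9* alone was at 7.41 to 9.14 and 12.8 to 15.7 CPM. Of the other tested genes *Barhl2* was at 1.09, *Lef1* at -0.06 and *Tcf7l2* at -0.006, none of them called. The choroid plexus list had *Ttr*, which encodes transthyretin, called higher among 3 tested genes (2.84, FDR = 1.83e-04 in edgeR), with sums of 2.79 to 5.91 CPM and 5.93 to 28.3 CPM. *Ttr* alone was at 0.403 to 2.12 CPM in controls and 2.43 to 22.3 CPM in mutants. How often other genes or sums of genes separate the genotypes in this way was not computed. The hem, meningeal, septal, interneuron, pallium, neuronal, endothelial and microglial lists had 0 called in edgeR, DESeq2 and limma-trend, with 0 or 1 gene of each at an unadjusted p below 0.05 in edgeR.

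Whether the genotype effect differed between neurons and cortex was tested in 1 fit over all libraries. The difference, neurons minus cortex, was -0.78 for *Zic1* (SE 0.21, FDR = 0.658), -0.83 for *Zic4* (SE 0.23, FDR = 0.643), -0.61 for *Zic5* (SE 0.30, FDR = 0.954) and -0.16 for *Zic2* (SE 0.19, FDR = 0.957), by edgeR's quasi-likelihood test. None of the 4 passed the FDR, which 0.0133% of 15000 genes did, and *Zic1* and *Zic4* were among the 5.2% of genes at an unadjusted p below 0.05. DESeq2 called *Zic4* (-0.83, adjusted p = 0.0497) and limma-trend none of the 4. The cortices carried a constitutive deletion and the cultures a Nes-cre deletion, at stages 1 day apart, so tissue, stage and type of deletion cannot be told apart.

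Control neurons had lower mean levels of each Zic gene than control cortex. The log2 difference was -1.56 for *Zic2* (SE 0.41, FDR = 0.0065) and -0.99 for *Zic5* (SE 0.38, FDR = 0.037), which were called lower in edgeR, and -2.31 for *Zic4* (SE 0.92, FDR = 0.0533) and -1.2 for *Zic1* (SE 0.69, FDR = 0.169), which were not. The 2 calls compare with 52.1% of tested genes called between these tissues and 27.3% called lower, so lower levels in culture were common. The call of *Zic5* was lost without control cortex replicate 1 (FDR = 0.164) or 3 (FDR = 0.0962), or control neuron replicate 2 (FDR = 0.108) or 3 (FDR = 0.134), and without litter 3 (-0.72, FDR = 0.0831). Without control neuron replicate 1, *Zic1* (-2.12, FDR = 0.0335) and *Zic4* (-4.17, FDR = 0.006) were both called in edgeR. *Zic4* also passed without mutant neuron replicate 3 (FDR = 0.0437) or 4 (FDR = 0.042), which enter only the spread. The Nes-cre transgene, 1 day of age and the culture differ together in this comparison.

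Of the marker lists, 6 of 6 endothelial and mural genes, 6 of 13 meningeal genes and 7 of 9 choroid plexus genes were called lower in control neurons than in control cortex. So were 9 of 10 interneuron genes, 8 of 13 hem genes (2 were higher), 6 of 9 Cajal-Retzius genes, 4 of 9 diencephalic genes, 3 of 6 septal genes (1 higher), 4 of 6 microglial genes and 7 of 10 GLI and hedgehog genes. Pallium genes went both ways, with 4 higher and 6 lower of 12. Of 5 neuronal genes, 3 were higher and 0 lower.

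Levels of the Zic genes varied between litters in both tissues. The range over the fitted levels of litters 4 to 7 in neurons was 3.68 on the log2 scale for *Zic4* (FDR = 2.85e-05), 2.42 for *Zic1* (FDR = 1.38e-05), 1.53 for *Zic2* (FDR = 9.94e-04) and 1.07 for *Zic5* (FDR = 0.166) by edgeR's test of all litter terms. The 3 members called compare with 5.04% of genes tested. *Zic4* was at 17.7 to 19.7 CPM in the 3 libraries of litters 4 and 7 and at 0.921 to 3.69 CPM in the 4 libraries of litters 5 and 6. These ranges did not overlap for *Zic1* either, at 84.1 to 94.0 and 16.7 to 33.1 CPM.

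Summed marker lists were read in the same cultures, litter by litter. The septal list was at 49.7 and 58.9 CPM in litter 4, 36.7 and 48.4 CPM in litter 5, 36.2 and 43.3 CPM in litter 6 and 55.4 CPM in litter 7, the control first where there was one. In the same order the interneuron list was at 275 and 262, 230 and 205, 156 and 191, and 268 CPM. The pallium list lay between 4433 and 4811 CPM in all 7 cultures. The GLI and hedgehog list, in that order, was at 186 and 163, 161 and 140, 159 and 143, and 194 CPM. The hem list, in that order, was at 104 and 105, 112 and 113, 103 and 94.7, and 90.7 CPM. The Cajal-Retzius list was at 139 and 239, 143 and 223, 183 and 295, and 405 CPM. Litters 4 and 7 thus had the higher values of the septal, interneuron and GLI lists, as of all 4 Zic genes. In the other lists the values of litters 4 and 7 did not all lie above those of litters 5 and 6. The margin was small for the septal list (49.7 against 48.4 CPM) and the GLI list (163 against 161 CPM). Most of the septal sum was *Spry2*, at 22.8 to 29.8 CPM in controls and 29.7 to 36.5 CPM in mutants. The part of the cells that express these lists in the Zic values was not tested.

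In the cortex the range over litters 1 to 3 was 0.83 for *Zic1* (FDR = 0.0089), 0.73 for *Zic2* (FDR = 0.0298), 0.78 for *Zic4* (FDR = 0.00297) and 1.08 for *Zic5* (FDR = 0.0567), by the same edgeR test. The 3 members called compare with 1.7% of genes tested. Litter 3 was highest in each. Without Phf6 -/Y replicate 1, *Zic4* remained called (FDR = 0.0324 in edgeR), *Zic1* (0.90, FDR = 0.206) and *Zic2* (0.59, FDR = 0.509) did not. *Zic2* also lost its call without Phf6 +/Y replicate 2 (FDR = 0.0708), or Phf6 -/Y replicate 2 (FDR = 0.093) or 3 (FDR = 0.051), and *Zic5* was called without Phf6 +/Y replicate 3 (FDR = 0.0167) or Phf6 -/Y replicate 5 (FDR = 0.0168).

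The ratio between members of a pair, which needs no scaling between libraries, was then compared. Per kilobase, the ratio of *Zic1* to *Zic4* was 2.35 to 3.38 in the 8 cortices (median 3.10) and 5.60 to 22.1 in the 7 neuron cultures. How many other gene pairs differ as much was not computed, and 52.1% of tested genes were called between control neurons and control cortex. The ratio of *Zic2* to *Zic5* was 3.87 to 6.87 in cortex and 2.41 to 4.52 in neurons, and that of *Zic1* to *Zic2* was 1.88 to 2.69 and 1.2 to 4.22. The high *Zic1* to *Zic4* ratios belonged to litters 5 and 6, where *Zic4* was lowest, at only 21 to 80 counts per library.

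**Figure D4:**
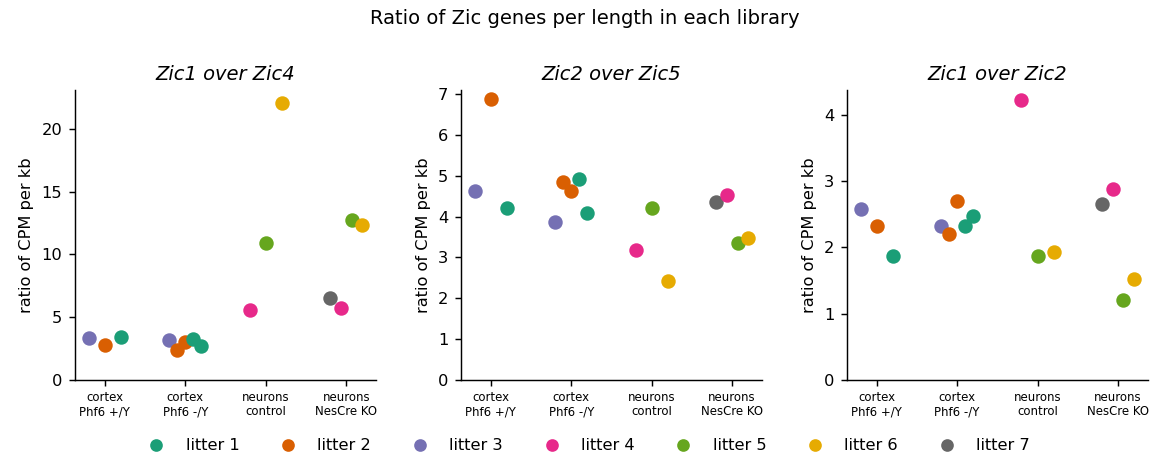
Ratio of CPM per kilobase (vertical axes, linear from 0) between *Zic1* and *Zic4*, *Zic2* and *Zic5*, and *Zic1* and *Zic2* in each library, coloured by litter. The first ratio lies between 2.35 and 3.38 in all cortices and from 5.60 to 22.1 in neurons.

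Genes around the pairs were compared to see how far the genotype difference extended. Within 1 Mb of *Zic2* and *Zic5*, 10 of 16 other genes were tested in the cortex and 0 were called, with log2 fold changes of -0.32 to 0.52. The highest was that of 2610035F20Rik, the noncoding gene between the pair, at 0.52 (SE 0.19, FDR = 0.339 in edgeR). It was at 5.91, 3.49 and 4.19 CPM in controls and 10.2, 5.77, 5.30, 5.17 and 4.31 CPM in Phf6 -/Y cortex. On the other sides, *Clybl* was at 0.16 (SE 0.25) and *Pcca*, 4.04 kb from *Zic2*, at -0.02 (SE 0.10), both mitochondrial enzymes. Farther away, and named after their values were seen, A330035P11Rik was at 0.49 (SE 0.28, FDR = 0.586 in edgeR) and *Nalcn*, which encodes a sodium leak channel, at 0.35 (SE 0.10, FDR = 0.222). Around *Zic1* and *Zic4*, 4 other genes lie within 1 Mb, and the 1 tested, *Plscr1*, 861 kb away, was at 0.16 (SE 0.25, FDR = 0.877 in edgeR).

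**Figure D5:**
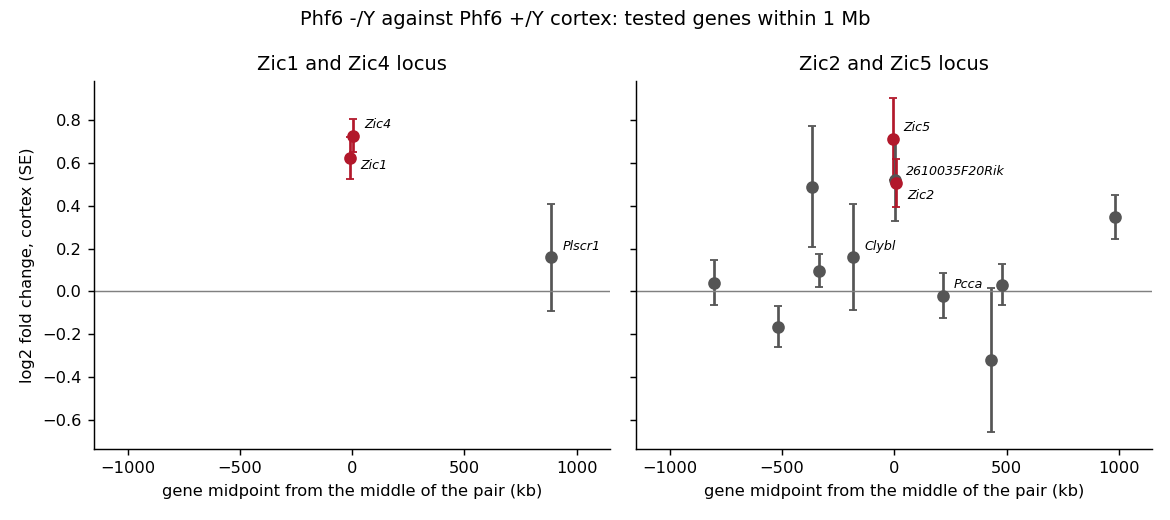
Log2 fold change with its SE in Phf6 -/Y against Phf6 +/Y cortex (vertical axis) for tested genes within 1 Mb of each Zic pair, by distance of the gene's midpoint from the middle of the pair in kb. The Zic genes (red) and 2610035F20Rik lie at 0.51 or above, and *Pcca* and *Clybl* next to them at -0.02 and 0.16, with A330035P11Rik at 0.49 and *Nalcn* at 0.35 farther out.

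The genes outside the family whose pattern over the 8 cortices was most like that of a member were found by the root mean square difference of centred log2 CPM. For *Zic2* the nearest was 2610035F20Rik, at 0.10, followed by *Zfhx4*, *Ccnd1*, *Peg3* and *Ptch1*, the median over all genes being 0.42. For *Zic4* they were *Asb4* (0.07), *Insyn2b*, *Ecel1*, *Sorcs3* and AW551984, against a median of 0.47. For *Zic1* they were *Insyn2b* (0.13), *Gabrq*, 1700095J03Rik, *Peg10* and *Asb4*, and for *Zic5* *Lrp2* (0.17), *Flywch2*, *Cxxc4*, *Slc52a3* and *Frmpd1*. Likeness was scored over the same libraries, so the genotype difference enters it. *Peg10*, *Asb4* and *Peg3*, imprinted genes, had log2 fold changes of 0.85, 0.80 and 0.56, with FDR of 5.27e-04, 0.0060 and 0.0227 in edgeR. Between members the difference ran from 0.15 for *Zic1* and *Zic2*, which lie on different chromosomes, to 0.37 for *Zic4* and *Zic5*. Of 14744 genes, 2 were nearer to *Zic1* and 4 nearer to *Zic2* than these 2 members were to each other, and 928 were nearer to *Zic4* and 137 nearer to *Zic5* than those 2 were. *Zic2* and *Zic5*, of 1 pair, were at 0.23, with 113 genes nearer to *Zic2* and 9 nearer to *Zic5*, and *Zic1* and *Zic4*, of the other, at 0.17, with 5 and 12 genes nearer.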

How the data were processed

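RNA from 15 individual foetuses was sequenced with a stranded kit and, per the labels, 80 bp reads. The authors aligned the reads to mm10 with Rsubread, counted them with featureCounts over its inbuilt RefSeq genes, and deposited raw counts per Entrez gene for 27179 entries, without normalization. Entries without a gene identifier (0.349% to 0.605% of the counts), 875 unmatched identifiers, 835 pseudogenes, 35 ribosomal RNA genes and 1276 predicted genes were removed, which left 23129. Genes were filtered with filterByExpr, libraries were scaled by TMM, and robust quasi-likelihood tests of edgeR 4.0.16 (R 4.3.3) were fitted on the whole table with Benjamini-Hochberg adjustment at an FDR of 0.05. Genotype was tested with litter as a term, because the labels give the litter of each foetus and littermates share a pregnancy. Over expressed genes, deviations from the group means correlated at -0.16 to 0.46 between littermates of unlike genotype in the cortex (5 pairs) and at 0.10 to 0.30 in the neurons (3 pairs), against -0.45 to 0.17 and -0.29 to 0.25 for other pairs. The interaction used all libraries, and control neurons were compared with control cortex in a fit of the 4 groups. The fits were also run on simulated counts that had the same relative spread for all genes. Those counts held no litter differences as large as those of *Zic1* and *Zic4* in neurons. Log2 CPM of single libraries used a prior count of 2.

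P-values of the fits with a litter term measure the spread between foetuses that litter and genotype leave. The comparison of control neurons with control cortex had no litter term, so its spread includes that between litters and littermates counted as independent. The depth of 16858007 to 31157700 counts leaves *Zic4* and *Zic5* in neurons with the fewest reads. The members, the 12 gene lists and the rules were chosen with earlier results of these data known. The genes named are the members and *Phf6*, list members past the FDR (at most 4) or with the smallest p, the nearest tested neighbours within 1 Mb, and the 5 genes of most like pattern for each member. Alternatives were RLE factors, unscaled totals, no filter, a filter of 1 CPM in 3 libraries, DESeq2 1.42.0, limma-trend (3.58.1), no litter term and each library left out. Leaving out whole litters was added after the data had been seen. Promoters are from RefSeq (GRCm38.p6; 3 of 4 members matched) and transcripts from GENCODE M21. Some single genes of the table are not reported on.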

Additional observations from a re-analysis of the deposited data

Results flagged for a closer look

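In groups of 4 or 5 libraries, 5 of 32 sets of values had 1 library far from the rest by Dixon's criterion, which chance gives in about 1 in 20. *Zic5* in Phf6 -/Y cortex replicate 1, of litter 3, was at 17.6 CPM against 8.11 to 9.0 CPM in the other 4 Phf6 -/Y cortices, and the same library stood out in the summed diencephalic genes (511 CPM against 55.8 to 68.4) and in the summed septal and rostral midline genes (177 CPM against 96.4 to 118). Phf6 -/Y cortex replicate 4, of litter 1, stood out in the summed meningeal fibroblast genes (663 CPM against 43.2 to 163) and in the summed choroid plexus genes (344 CPM against 4.89 to 75.4). The part of other tissue in the *Zic5* value was not tested. Without litter 3 the log2 fold change of *Zic5* in the cortex was 0.62, against 0.71 with it.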

How the results depend on the processing

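Without the litter term, which is the replicate block of these comparisons, the log2 fold changes in cortex were 0.49 for *Zic1*, 0.42 for *Zic2*, 0.61 for *Zic4* and 0.58 for *Zic5*, in neurons 0.23, 0.59, 0.29 and 0.29, and *Zic2* turned to 0.16 in the difference between tissues; 1, 1 and 0 genes were called in the 3 comparisons, against 57, 38 and 2 with the block. In cortex no filter gave 114 calls with *Zic2* at 0.51, DESeq2 199 with *Zic2* at 0.51 and *Zic5* at 0.72. Without litter 1 *Zic1* was at 0.65, *Zic2* at 0.67, *Zic5* at 1.07 and *Pcca* at 0.071. Without litter 2 there were 2 calls, with *Zic1* at 0.56, *Zic4* at 0.68 and *Plscr1* at -0.019, and without litter 3 there were 10, with *Zic1* at 0.66 and *Clybl* at -0.17. In neurons library totals gave 73 calls, no filter 297, DESeq2 62 with *Zic4* at 0.014 and limma-trend *Zic4* at 0.030. Without litters 4, 5 and 6 there were 108, 12 and 417 calls, with *Zic4* at 0.018 and 0.17 and *Zic1* at 0.056 in the first and second of these. For the difference between tissues no filter gave 6 calls, DESeq2 12 with *Zic4* at -0.83, and leaving out litter 3 gave 1. For control neurons against control cortex, *Zic4* passed with library totals (-2.45), the stricter filter (-2.31), DESeq2 (-2.34) and limma-trend (-3.24), and *Zic5* was at -0.72 without litter 3. For litter in cortex, no filter gave 482 calls and DESeq2 832, both with *Zic5* at 1.08 and called. For litter in neurons no filter gave 1961 calls, against 701. The causes were not tested.

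With 1 library left out, log2 fold changes in cortex were 0.55 to 0.67 for *Zic1*, 0.43 to 0.67 for *Zic2*, 0.68 to 0.79 for *Zic4* and 0.48 to 1.08 for *Zic5*, with 7 to 81 calls, and in neurons -0.33 to 0.057, 0.23 to 0.52, -0.37 to 0.18 and 0.0071 to 0.22, with 16 to 481. Differences between tissues were -0.97 to -0.56, -0.33 to 0.016, -1.06 to -0.60 and -0.98 to -0.37, with 0 to 4. Control neurons minus control cortex gave -2.12 to -0.80, -1.84 to -1.26, -4.17 to -1.79 and -1.31 to -0.72, with 6794 to 7967 calls. Litter ranges were 0.77 to 0.91, 0.59 to 0.83, 0.69 to 0.89 and 0.84 to 1.2101 in cortex, with 16 to 586 calls, and 2.21 to 2.83, 1.213 to 1.81, 3.13 to 4.63 and 0.83 to 1.13 in neurons, with 483 to 2411. For genes near the pairs the cortex ranges were -0.16 to 0.50 for *Clybl*, -0.019 to 0.33 for *Plscr1* and -0.076 to 0.070 for *Pcca*.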
